A study of Mus musculus with 2 samples.

Results

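The 10 Polycomb repressive complex genes Ezh1, Ezh2, Eed, Suz12, Jarid2, Bmi1, Ring1, Rnf2, Pcgf1 and Phc1 were taken by symbol from the expression tables of induced regulatory T (iTreg) cells, which hold 23282 rows of genes. Every one of the 10 had a row, and every one reached 10 reads in at least 1 library, the level required of a gene for comparison. Naïve CD4+ T cells from spleens of wild-type (WT) mice aged 7 to 10 weeks were activated through CD3 and CD28 and kept for 1 day in medium with IL-2 (1 ng/ml), TGF-β1 (5 ng/ml) and antibodies against IFN-γ and IL-4, either with DMSO (vehicle control) or with 10 μM Tubastatin A (TSA), a selective inhibitor of the deacetylase HDAC6. There was 1 library of total RNA for each condition, so no difference given here has a replicate check and no p-value was computed. The cells were differentiated in culture and are not Treg cells taken from an animal.

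Polycomb proteins keep genes silent through marks on histones. Polycomb repressive complex 2 (PRC2) methylates lysine 27 of histone H3 through its catalytic subunit EZH2 or EZH1, and needs EED and SUZ12 for activity. Polycomb repressive complex 1 (PRC1) attaches ubiquitin to histone H2A through RING1 (encoded by Ring1) or RING1B (encoded by Rnf2), each paired with 1 PCGF protein. In T cells EZH2 is known for rising with activation and for restraining effector cytokine genes, and Treg cells need it to keep their identity after activation.

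Of 6 genes for the core of PRC2, 4 were lower in TSA-treated cells beyond counting error, where 28.0% of all genes compared were. That share covers genes down to 10 reads, whose intervals are wider than those of the core genes. Eed was at 0.642, Ezh2 at 0.785, Suz12 at 0.791 and Rbbp7 at 0.921 of the control value, while Rbbp4 was at 0.994. Among genes whose mean normalized count reached 50, Eed stood at percentile 5.21, Ezh2 at 18.1 and Suz12 at 18.8. Scaled by total reads, Rbbp7 was no longer lower beyond counting error, and Rbbp4 was higher. Ezh1, the alternative catalytic subunit, went the other way with a fold change of 1.66. Of the 5 PRC1 members, Bmi1 was lower at 0.862, though not beyond counting error when scaled by total reads or the upper quartile, and the others had intervals that included no change. Outside the 10 genes the PRC1 subunit Pcgf2 differed most among subunits with at least 10 reads in both libraries, with a fold change of 2.49. None of the 10 genes passed the 2-fold threshold of the study, which 14.7% of all genes compared passed, or 4.46% of those whose mean normalized count reached 50.

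Each value deposited is log2 of a normalized count plus 1, and a fold change is the TSA value minus the control value, converted back from log2. The libraries are 3′ libraries, in which a transcript gives about 1 read whatever its length, so reads of different genes were set side by side without dividing by length. Recovered reads summed to 10846167 (control) and 10432635 (TSA). Intervals in parentheses are exact Clopper-Pearson 95% intervals on the reads of the 2 libraries, or exact Poisson intervals for a single count. They cover counting error only, and say nothing of the spread between cultures. All 8 CD4 T cell markers were well covered, with 602 to 4531 control reads and 794 to 4187 TSA reads each. Of other cells, the 7 myeloid markers held 32 control and 25 TSA reads in all, and the 6 B cell markers 13 and 27, with Pax5 at 0 in both libraries. The 4 NK cell markers held 77 and 81 reads, which came from Klrd1 (47 and 40) and Eomes (30 and 40) but for 1 TSA read. Of the chains of the CD8 co-receptor, Cd8b1 had 65 and 77 reads and Cd8a 15 and 10. Foxp3, the defining factor of Treg cells, had 1633 control reads and 965 TSA reads. In bulk RNA of this kind, fewer cells expressing a gene and less RNA of it per cell cannot be told apart.

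The promoters of 4 PRC2 genes are shown because these genes carry the contrast between the lower core subunits and the higher Ezh1. Promoter windows of 250 bases before to 50 bases after the start site were taken from RefSeq (GRCm38.p6, the assembly that mm10 in the submitters' processing notes names), and 9 of the 10 genes matched, Pcgf1 being the other. Capitals mark letters of an E2F-type motif (TTTCCCGC or TTTGGCGC) or of a CCAAT box, on either strand. Ezh2 lies on the minus strand at chr6:47594981-47595280, Ezh1 on the minus strand at chr11:101226414-101226713, Eed on the minus strand at chr7:89980927-89981226 and Suz12 on the plus strand at chr11:79992856-79993155.
Ezh2: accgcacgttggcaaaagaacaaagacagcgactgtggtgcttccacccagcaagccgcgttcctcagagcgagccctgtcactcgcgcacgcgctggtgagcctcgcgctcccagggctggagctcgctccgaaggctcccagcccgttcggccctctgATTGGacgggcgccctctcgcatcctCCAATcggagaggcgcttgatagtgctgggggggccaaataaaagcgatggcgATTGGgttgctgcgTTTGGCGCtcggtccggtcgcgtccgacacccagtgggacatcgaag
Ezh1: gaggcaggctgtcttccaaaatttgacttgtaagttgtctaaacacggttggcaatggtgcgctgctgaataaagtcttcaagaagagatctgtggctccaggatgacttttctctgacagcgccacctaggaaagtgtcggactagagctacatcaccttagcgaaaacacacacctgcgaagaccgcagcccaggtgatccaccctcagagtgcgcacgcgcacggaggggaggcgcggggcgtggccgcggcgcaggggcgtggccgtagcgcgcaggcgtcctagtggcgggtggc
Eed: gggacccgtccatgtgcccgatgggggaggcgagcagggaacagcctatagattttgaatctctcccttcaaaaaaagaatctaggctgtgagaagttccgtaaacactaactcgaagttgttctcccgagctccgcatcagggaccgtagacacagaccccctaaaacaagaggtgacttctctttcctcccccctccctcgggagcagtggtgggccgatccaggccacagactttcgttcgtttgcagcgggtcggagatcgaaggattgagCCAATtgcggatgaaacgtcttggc
Suz12: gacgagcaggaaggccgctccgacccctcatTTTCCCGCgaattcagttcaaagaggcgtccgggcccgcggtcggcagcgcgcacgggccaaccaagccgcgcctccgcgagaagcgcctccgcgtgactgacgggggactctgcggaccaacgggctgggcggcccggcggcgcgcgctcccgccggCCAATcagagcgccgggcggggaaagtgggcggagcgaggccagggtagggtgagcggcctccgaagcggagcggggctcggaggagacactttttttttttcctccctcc
E2F factors switch on genes for DNA replication, and CCAAT boxes bind the factor NF-Y. The Ezh2 window held TTTGGCGC 3 bases past the start site and 3 CCAAT boxes at 90, 64 and 11 bases before it. The Suz12 window held TTTCCCGC 219 bases before the start and a CCAAT box 61 bases before it. Eed had a CCAAT box 25 bases past the start and no E2F-type match, and Ezh1 had neither motif. Of 32851 promoter windows of this length, 1.56% held at least 1 of the E2F-type motifs and 37.4% a CCAAT box. Among the 10 windows of the Polycomb genes (Jarid2 has 2), 2 held an E2F-type motif and 5 a CCAAT box. The 5 were those of Ezh2, Eed and Suz12 and both of Jarid2, which was higher in TSA-treated cells. Bmi1, which was lower, held neither motif. The Suz12 window is rich in CpG, with 41 of these dinucleotides against a median of 7 over all windows, and Ezh2 had 31, Ezh1 23 and Eed 17. A match of letters is a description of the window and not a binding site.

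Ezh2, which encodes the catalytic subunit of PRC2 in dividing cells, was the most abundant of the 10 genes, with 4146 control reads and 3285 TSA reads. Its deposited log2 values were 12.03 and 11.68, a log2 fold change of -0.35 and a fold change of 0.785 (0.749 to 0.822). The interval lay below no change. In GENCODE M21 on GRCm38 the gene is protein-coding and lies on chromosome 6 from 47530139 to 47595341.

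Ezh1 encodes the related enzyme that is less active and is used more by cells that do not divide. It had 159 control reads and 267 TSA reads, deposited log2 values of 7.33 and 8.06. The log2 fold change was 0.73 and the fold change 1.66 (1.36 to 2.04), so that Ezh1 was higher beyond counting error and its interval reached 2-fold. Among the 9399 genes whose mean normalized count reached 50, its log2 fold change stood at the 94.3rd percentile. Ezh1 lies on chromosome 11 from 101191115 to 101226463.

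The balance of the 2 enzymes can be read within each library, where the scaling between libraries plays no part. The control library held 26.1 reads of Ezh2 for each read of Ezh1 (22.3 to 30.7), and the TSA library held 12.3 (10.9 to 14.0). The ratio in TSA-treated cells was thus 0.472 of that in control cells (0.383 to 0.580, exact conditional odds ratio). Expressed as a share of the reads of both genes, Ezh1 made up 3.69% (3.15 to 4.30) in the control library and 7.52% (6.67 to 8.43) in the TSA library, and Ezh2 remained the main form in both.

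Eed, whose protein binds the methylated histone and stimulates the enzyme, had the lowest fold change of the 10 genes. It had 1450 control reads and 940 TSA reads, deposited log2 values of 10.51 and 9.87. The log2 fold change was -0.64 and the fold change 0.642 (0.591 to 0.697), at the 5.21st percentile of the 9399 genes. Eed lies on chromosome 7 from 89954654 to 89980983.

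Suz12 encodes the scaffold that holds PRC2 together. It had 2677 control and 2137 TSA reads, deposited log2 values of 11.39 and 11.06, and a fold change of 0.791 (0.746 to 0.837). The fall was close in size to that of Ezh2, with log2 fold changes of -0.34 and -0.35, and smaller than that of Eed, whose interval did not overlap with either. Suz12 lies on chromosome 11 from 79993106 to 80034123. The exons of Ezh2, Eed and Suz12 each overlap a non-coding gene on the opposite strand, but at least 11854 bases from the 3′ end where the reads of such libraries arise.

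Jarid2, whose protein guides PRC2 to its sites, went against Ezh2, Eed and Suz12 and the same way as Ezh1. It had 604 control reads and 707 TSA reads, deposited log2 values of 9.25 and 9.46. The fold change was 1.16 (1.04 to 1.29), so the rise was small though its interval excluded no change. Jarid2 lies on chromosome 13 from 44729474 to 44921643.

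**Figure D1:**
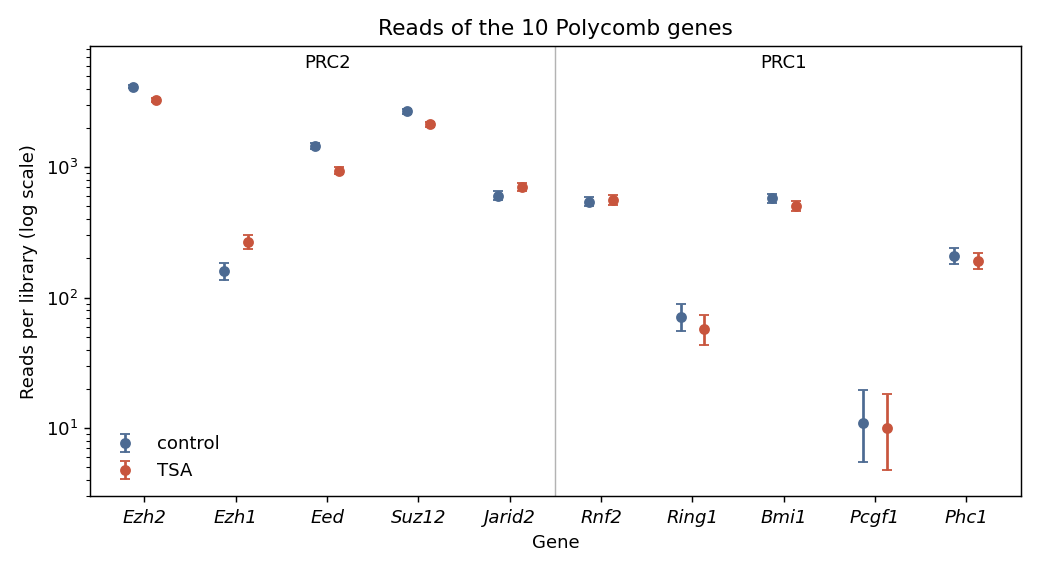
Reads of each of the 10 genes (horizontal axis) in the control library (blue) and the TSA library (red) on a log axis, with exact 95% Poisson intervals as bars; 1 library per condition. Ezh2 (4146 and 3285 reads) and Suz12 (2677 and 2137) stand highest and Pcgf1 (11 and 10) lowest, and Ezh1 (159 and 267) and Eed (1450 and 940) move in opposite directions.

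Rnf2 encodes RING1B, the main ubiquitin ligase of PRC1. It had 545 control reads and 560 TSA reads and a fold change of 1.02 (0.903 to 1.15). On counting error alone, this interval leaves out a difference between the 2 libraries as large as that of Eed or Ezh1. Rnf2 lies on chromosome 1 from 151458004 to 151500955 and shares 158 bases at its 3′ end with Trmt1l on the opposite strand, which had 334 and 350 reads, and whether reads were counted by strand is not given in the sources used here.

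Ring1, the other ligase gene, had 71 control and 57 TSA reads, deposited log2 values of 6.18 and 5.85. Its fold change of 0.798 (0.551 to 1.14) was similar in size to that of Ezh2 but was not distinguishable from no change at this depth. Reads of Rnf2 outnumbered those of Ring1 by 7.68 to 1 in the control library (5.99 to 9.97) and by 9.82 to 1 in the TSA library (7.47 to 13.1), ratios that differed by 1.28 times (0.872 to 1.88), an interval that includes no change. Ring1 lies on chromosome 17 from 34020792 to 34024680.

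Bmi1 encodes PCGF4, a PCGF protein of canonical PRC1. It had 579 control and 504 TSA reads and a fold change of 0.862 (0.763 to 0.973). Scaled by total reads the fold change was 0.905 (0.802 to 1.02) and by the upper quartile 0.888 (0.786 to 1.002), with intervals that then included no change. Bmi1 lies on chromosome 2 from 18677018 to 18686629.

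Pcgf1, the PCGF protein of a variant PRC1, was near the limit of the depth, with 11 control and 10 TSA reads. Its fold change of 0.909 had an interval from 0.343 to 2.33, which holds both 2-fold changes, so Pcgf1 allows no statement on a change. Phc1, a polyhomeotic subunit that lets canonical PRC1 form clusters, had 208 and 192 reads and a fold change of 0.914 (0.747 to 1.12). Neither gene differed from no change beyond counting error. Pcgf1 lies on chromosome 6 from 83077869 to 83080855 and Phc1 on chromosome 6 from 122317731 to 122340561.

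**Figure D2:**
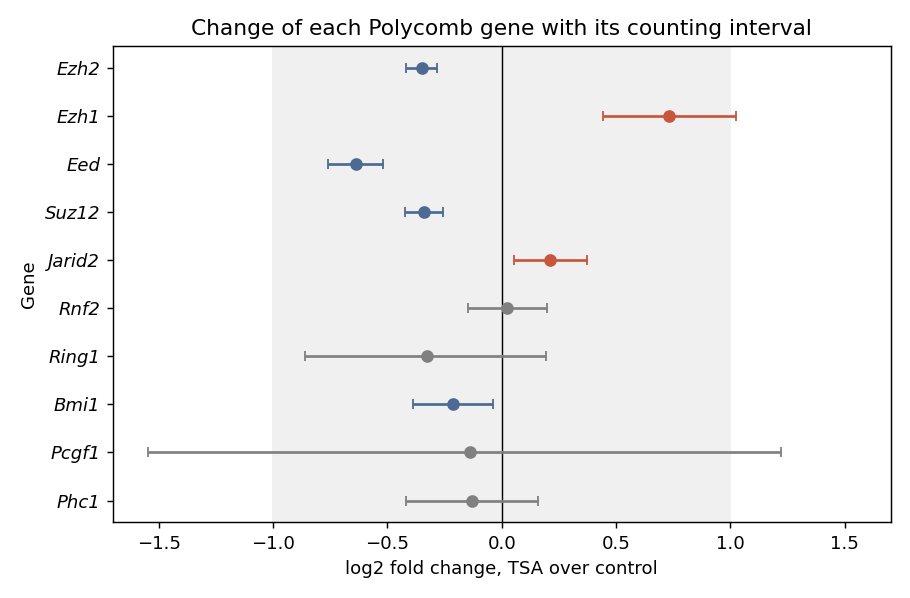
log2 fold change (TSA over control, horizontal axis) of each of the 10 genes, with the exact 95% interval on the reads as bars; blue marks intervals below 0, red above 0 and grey those that hold 0, and the grey band spans 2-fold in each direction. Ezh2, Eed, Suz12 and Bmi1 lie below 0, Ezh1 and Jarid2 above, and every point lies inside the band.

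Counted together, 0 of the 10 genes passed 2-fold, where 14.7% of the 12164 genes compared did. The interval lay below no change for 4 genes (Ezh2, Eed, Suz12 and Bmi1, or 3 with scaling by total reads or the upper quartile, without Bmi1) and above it for 2 (Ezh1 and Jarid2), while over all genes compared the shares were 28.0% lower and 28.1% higher. At any size, 7 of the 10 genes were lower, against 48.6% of all genes compared. The median log2 fold change of the 10 was -0.18, beside 0.015 over all genes compared. Counting error alone is a narrow yardstick at this depth, since 56.1% of all genes compared had an interval that excluded no change. Genes whose mean normalized count reached 50, a group that holds every member but Pcgf1, were lower at any size in 54.6% of cases and past 2-fold in 4.46%, with log2 fold changes from -0.65 at the 5th percentile to 0.77 at the 95th. Eed and Ezh1 stood close to these limits, and the other 8 genes well within them.

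**Figure D3:**
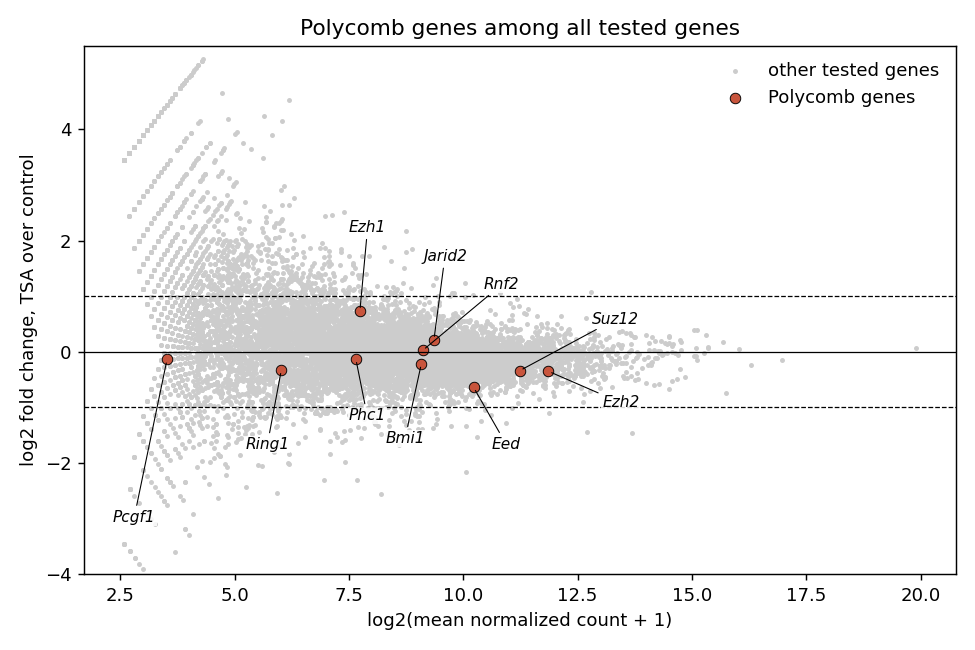
log2 fold change (TSA over control) of the 12164 genes compared against log2 of the mean normalized count plus 1; red points are the 10 Polycomb genes, dashed lines mark 2-fold and 6 genes lie outside the plotted range. The spread of all genes narrows with the count, and Eed (-0.64) and Ezh1 (0.73) lie toward its edges while Rnf2 (0.025) lies at its middle.

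The order of the 10 genes by reads was nearly the same in both libraries. Ezh2, Suz12 and Eed led it, and Ring1 and Pcgf1 closed it. Jarid2, Bmi1 and Rnf2 could not be ranked against each other in the control library, where their reads had intervals of 557 to 654, 533 to 628 and 500 to 593. Rnf2 stood above Bmi1 in the TSA library, with intervals that also overlapped (515 to 608 and 461 to 550). Ezh1 and Phc1 changed places as well. Ezh1 had 159 reads (135 to 186) below the 208 of Phc1 (181 to 238) in the control library, with intervals that just overlapped, and 267 (236 to 301) above 192 (166 to 221) in the TSA library, where they did not.

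The wider complexes were examined with lists of their other subunits. Of 12 PRC2 genes with a row among 14 listed, core and accessory together, none passed 2-fold (14.7% over all genes compared), and 6 were lower and 2 higher beyond counting error (28.0% and 28.1% over all genes compared). Their median log2 fold change was -0.16. Rbbp4, which encodes a histone-binding subunit shared with other complexes, was the most abundant of the PRC2 genes, with 5958 and 5984 reads. Its fold change was 0.994 (0.959 to 1.03), and it was higher (1.007 to 1.08) when scaled by total reads. Its relative Rbbp7 had 3291 and 3061 reads and a fold change of 0.921 (0.876 to 0.968), which became 0.967 (0.920 to 1.02) with total-read scaling. Among accessory subunits, Aebp2, which stabilises the complex on chromatin, had 2647 and 2265 reads and a fold change of 0.847 (0.801 to 0.897). Phf19, a Polycomb-like protein that recruits PRC2, had 148 and 115 reads and a fold change of 0.771 (0.598 to 0.988), which became 0.809 (0.628 to 1.04) with scaling by total reads and 0.794 (0.616 to 1.02) by the upper quartile. The other accessory genes with a row, Mtf2, Phf1 and Lcor, had intervals that included no change.

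Among 28 PRC1 genes the directions were mixed, with 8 higher and 6 lower beyond counting error, beside 28.1% and 28.0% of all genes compared, so that the share of higher genes was near that of all genes. Their median log2 fold change was -0.02, which turned to a positive value with scaling by total reads (0.045) or the upper quartile (0.018). The genes past 2-fold were Pcgf2 and Auts2, where 11.5% of all genes compared were higher by that amount. Pcgf2 encodes MEL18, the closest relative of BMI1 and its alternative in canonical PRC1. It had 75 control reads and 190 TSA reads and a fold change of 2.49 (1.91 to 3.32). Auts2, which is found in a variant PRC1 linked with gene activation, rested on 1 control read and 20 TSA reads, a ratio with an interval of 3.17 to 821, and was compared only because of its TSA reads.

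The PCGF genes set the type of PRC1, and their mix differed between the libraries (an analysis added after the values were seen, like the other family shares here). Pcgf2 held 4.80% of the reads of the 6 PCGF genes in the control library (3.80 to 5.98) and 12.7% in the TSA library (11.05 to 14.5). Pcgf5, a PCGF protein of variant PRC1, went from 34.3% (31.9 to 36.7) to 26.4% (24.2 to 28.7), with 535 and 395 reads and a fold change of 0.732 (0.640 to 0.834). Bmi1 held 37.1% (34.7 to 39.5) and 33.7% (31.3 to 36.1), an interval that overlapped with that of Pcgf5 in the control library and lay above it in the TSA library, and Pcgf1 held the least, at 0.704% and 0.668%. The intervals of the shares did not overlap for Pcgf2 and Pcgf5, and overlapped for the other 4 genes. Bmi1 outnumbered Pcgf1 by 52.6 to 1 in control cells and by 50.4 to 1 in TSA-treated cells, ratios that differed by 0.958 times with a wide interval of 0.366 to 2.54, since Pcgf1 had few reads.

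The CBX proteins of canonical PRC1 read the mark that PRC2 writes. Together Cbx2, Cbx6, Cbx7 and Cbx8 had 2692 control reads and 4213 TSA reads. Cbx6 was the main one with 2033 and 3271 reads and a fold change of 1.59 (1.51 to 1.68), but its exons share 563 bases with Npcd on the same strand (17 and 50 reads), 4792 bases or more from the 3′ end of Cbx6. Cbx2 had 236 and 367 reads and a fold change of 1.54 (1.30 to 1.82), and Cbx7 372 and 513 reads and a fold change of 1.37 (1.19 to 1.56). Cbx7 shares 100 bases at its 3′ end with Apobec3 on the opposite strand. Whether reads were counted by strand is not given, so reads of Apobec3 among those of Cbx7 cannot be told apart. Cbx8 had 51 and 62 reads with an interval of 0.818 to 1.78. Thus 3 of these 4 genes were higher beyond counting error and none passed 2-fold, where 28.1% and 14.7% of all genes compared did. Of the reads of the 4 genes, Cbx6 made up 75.5% in the control library (73.9 to 77.1) and 77.6% in the TSA library (76.4 to 78.9). The intervals of the shares overlapped for each of the 4 genes.

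Among the polyhomeotic genes the balance between Phc2 and Phc3 differed between the libraries. Phc2 had 1086 control and 845 TSA reads and a fold change of 0.771 (0.703 to 0.844), and Phc3 had 1151 and 1532 reads and a fold change of 1.32 (1.22 to 1.42). Phc3 thus held 47.1% of the reads of the 3 genes in the control library (45.1 to 49.1) and 59.6% in the TSA library (57.7 to 61.5), and Phc2 44.4% (42.4 to 46.4) and 32.9% (31.1 to 34.7). Phc1 made up 8.51% and 7.47%, with intervals that overlapped. Scmh1, a partner of the polyhomeotic proteins, had 272 and 341 reads and a fold change of 1.24 (1.06 to 1.46).

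**Figure D4:**
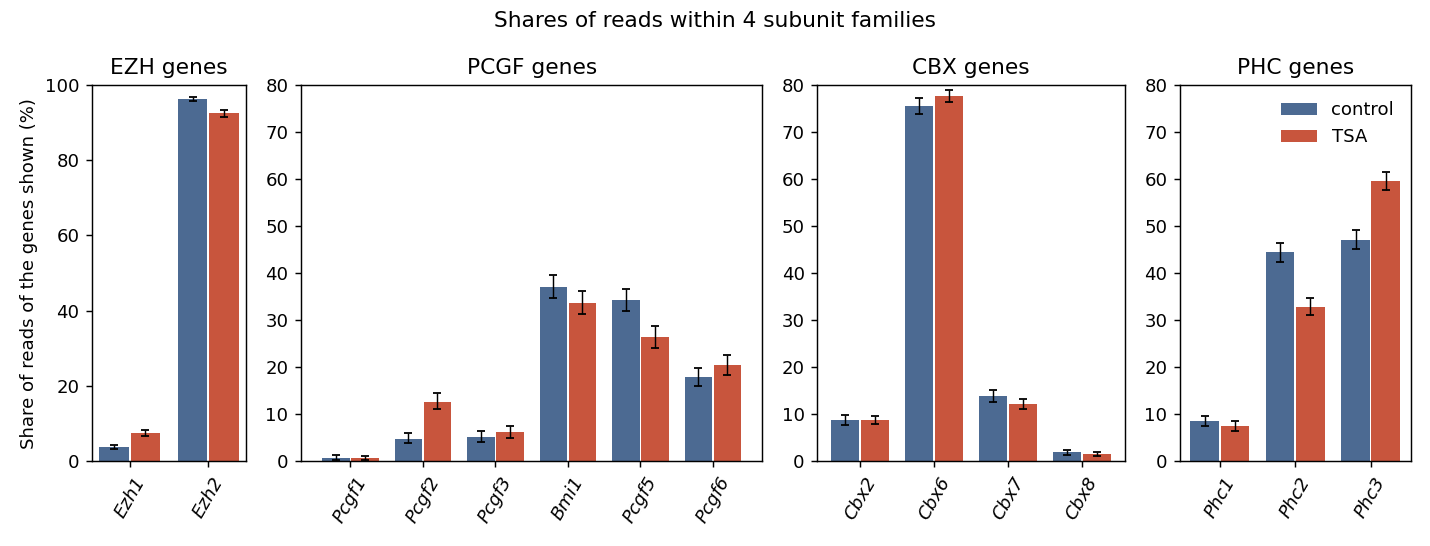
Share of the reads of the genes shown for each subunit family (vertical axis, percent; the axis ends at 100% for EZH and 80% for the others) held by each gene in the control library (blue) and the TSA library (red), with exact 95% binomial intervals as bars. Ezh1 goes from 3.69% to 7.52%, Pcgf2 from 4.80% to 12.7% and Phc3 from 47.1% to 59.6%, while Cbx6 stays close, at 75.5% and 77.6%.

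In variant PRC1, which lacks CBX proteins, 2 of 11 genes were higher and 3 lower beyond counting error, beside 28.1% and 28.0% of all genes compared. The higher genes were Bcorl1 and Auts2, the latter compared only because of its TSA reads. Bcor, a corepressor of the complex with PCGF1, had 903 and 982 reads and an interval of 0.983 to 1.18 that excluded no change with scaling by total reads (1.03 to 1.24) or the upper quartile (1.012 to 1.22). Bcorl1, its relative, had 251 and 401 reads and a fold change of 1.58 (1.35 to 1.86). The 3 lower genes were Mga, L3mbtl2 and E2f6, which belong to the complex formed around PCGF6. Mga had 1920 and 1488 reads and a fold change of 0.767 (0.717 to 0.822), L3mbtl2 862 and 727 reads and a fold change of 0.836 (0.756 to 0.923), and E2f6 451 and 369 reads and a fold change of 0.811 (0.704 to 0.932). Pcgf6 itself had 280 and 306 reads, with an interval of 0.917 to 1.28 that included no change. Yaf2, Rybp and Wdr5, which also take part in that complex, had fold changes of 0.980, 0.979 and 0.958 with intervals that included no change.

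Enzymes that oppose Polycomb showed 1 change. Of 5 such genes with enough reads among 7 listed, Bap1, the deubiquitinase that removes the PRC1 mark, was lower, with 377 and 279 reads and a fold change of 0.734 (0.625 to 0.858), where 28.0% of all genes compared were lower. The demethylases of the PRC2 mark, Kdm6a (477 and 449 reads) and Kdm6b (510 and 535 reads), had intervals of 0.818 to 1.06 and 0.918 to 1.18. Asxl2, a partner of BAP1, had 668 and 728 reads and an interval of 0.970 to 1.20 that excluded no change with total-read scaling (1.02 to 1.26).

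Genes of proliferation, with which Ezh2 expression is known to rise, were lower in the TSA library as well. Of 25 such genes, 23 were lower beyond counting error and 6 by more than 2-fold, where 28.0% and 3.15% of all genes compared were. The 6 were Mki67, Birc5, Plk1, Ccne2, Rrm2 and Cdc20, and with scaling by total reads or the upper quartile they were 5, as Cdc20 came to a log2 fold change of -0.96 or -0.99. Their median log2 fold change was -0.73, and their summed level went from 5750 to 4290 CPM (reads scaled to the library total). Mki67 had 1861 and 653 reads and a fold change of 0.348 (0.317 to 0.380), Top2a 8156 and 4420 reads and a fold change of 0.537 (0.517 to 0.557), and Mcm7 8845 and 7136 reads and a fold change of 0.799 (0.774 to 0.824). The falls of Ezh2 and Suz12 were close in size to that of Mcm7, and that of Eed lay between Mcm7 and Top2a. Mcm7 fell most of the Mcm genes listed, and the others had fold changes from 0.834 (Mcm5) to 0.987 (Mcm2). The falls of Ezh2, Suz12 and Eed were smaller than the median fall of the list. The part of proliferation in the lower PRC2 genes was not tested. Mcm2 and E2f1, the other 2 genes of the list, had intervals that included no change, and their direction turned with scaling by total reads or the upper quartile.

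**Figure D5:**
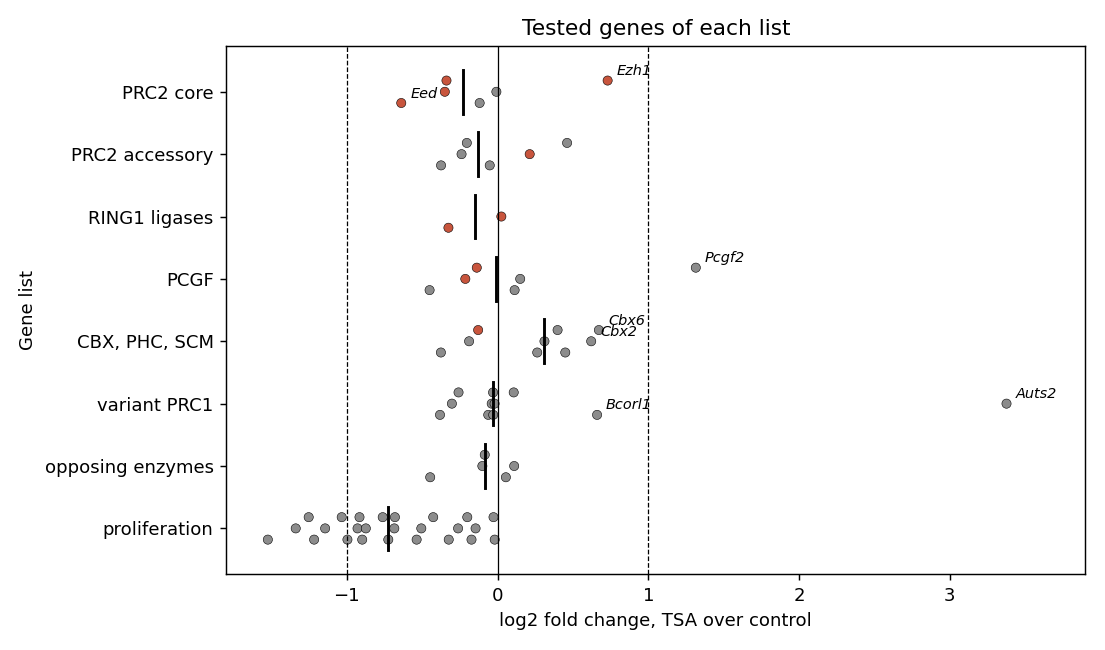
log2 fold change (TSA over control, horizontal axis) of the genes compared in each list (rows); red points are members of the 10 Polycomb genes, grey points other genes, black bars the median of each list and dashed lines 2-fold. The PRC2 core has a median of -0.23 with Ezh1 apart at 0.73, the CBX, PHC and SCM genes a median of 0.31, and the proliferation genes the lowest median, -0.73.

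Hox genes, the classic targets that Polycomb keeps silent outside the embryo's body axis, were almost without reads. Of 39 Hox genes, 23 had no read in either library, which at a one-sided limit allows up to 3 reads of each, or a CPM of 0.277 (control) and 0.288 (TSA). Hoxb4, which is used by blood progenitors, had 33 control and 70 TSA reads and a fold change of 2.07 (1.37 to 3.28). Hoxd4 had 14 and 32 reads and a fold change of 2.18 (1.17 to 4.59), but 1154 bases of its exons overlap Gm28230 on the same strand, as near as 478 bases to its 3′ end. Hoxd11 and Hoxb1 were compared only through their TSA reads, with 0 and 24 reads for Hoxd11, at least 7.92-fold higher with the control set at that limit of 3 reads and with a lower end of 5.96 by the interval on both counts (its exons share 455 bases with Gm28309 on the same strand, 2659 bases or more from its 3′ end), and 1 and 11 reads for Hoxb1, a ratio with an interval of 1.58 to 469. Over all 39 genes, 14 had more reads in the TSA library and 1 in the control library. The same count was not taken over all rows. Those rows also leaned to TSA, with 2817 genes past 2-fold higher and 1200 lower when no filter on reads was set. Reads in the TSA library alone were found for 9 Hox genes and in the control library alone for 1, and over all rows for 1940 and 640 genes. Of 10 other genes that Polycomb is known to bind, among them those for effector cytokines and their regulators, 7 had enough reads, and 3 of these were higher and none lower beyond counting error, beside 28.1% and 28.0% of all genes compared. Tbx21, which encodes the Th1 factor T-bet, was the most abundant, with 1974 and 2394 reads and a fold change of 1.20 (1.13 to 1.28). The count higher by 2-fold was 2 (11.5% over all genes compared), Il10 (12 and 51 reads) and Il4 (1 and 14 reads), the latter compared only through its TSA reads.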

How the data were processed

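Total RNA of 1 control and 1 TSA culture was made into QuantSeq 3′ libraries and sequenced as single-end 75-nt reads. The submitters' processing notes name Bowtie2, bedtools and mm10, and the study used ExDEGA. The annotation and the counting by strand are not given in the sources used here. The values the authors deposited are log2 of a normalized count plus 1. Reads were recovered from them as whole multiples of 1.005 (control) and 0.995 (TSA) normalized counts. Of values from 1 to 300 reads, 99.95% and 99.94% lay within 0.1 of a whole number. Above about 1443 reads, the rounding of the log2 values spans more than 1 read. A gene was compared when 1 or both libraries held at least 10 of its reads, and a gene was called past 2-fold on the deposited scale, where the added count of 1 understates changes of low genes. No test was possible with 1 library per condition.

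The 10 genes were named in full. Genes of the PRC2, PRC1 and opposing-enzyme lists could be named when past 2-fold or when the interval excluded no change, and from the proliferation, target and marker lists up to 6 each with the most reads or past 2-fold. Other genes named beside the results they touch, and the genes of the histone methylation lists, were chosen after their values were seen. A further gene is neither reported here nor counted in the lists. Members and lists were chosen with earlier results of these data known. The motifs and the family shares were chosen after seeing the data. Scaling, pseudocount, filter and threshold were varied. The steps were tested on simulated data. Computations used pandas 2.3.3, scipy 1.17.1, numpy 2.4.6 and matplotlib 3.10.9 under Python 3.11.15, with gene positions from GENCODE M21.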

Additional observations from a re-analysis of the deposited data

How the results depend on the processing

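No paired analysis was possible because each condition had a single library, which also left no replicate to omit. Each of the 10 genes kept the direction of its log2 fold change under all 4 other scalings and both other pseudocounts, with a range of -0.64 to -0.57 for Eed, -0.35 to -0.28 for Ezh2 and 0.72 to 0.80 for Ezh1. Scaling by total reads raised log2 fold changes by 0.070, and by less for genes with few reads. With a 1.5-fold threshold, 2 of the 10 genes passed (Eed and Ezh1), 2 PRC2 genes in all, 5 PRC1 genes, 15 proliferation genes and 3293 genes in total (2279 higher and 1014 lower). Without a filter on reads, 4017 genes passed 2-fold (2817 higher and 1200 lower), with 1 opposing enzyme and 9 Hox genes. With at least 10 reads in both libraries, 747 passed (524 higher and 223 lower), with 1 PRC1 gene and 2 Hox genes. With the mean normalized count required to reach 50, 419 passed (278 higher and 141 lower, 66.3% higher in place of 78.5%), with 1 PRC1 gene and 1 Hox gene, and with a pseudocount of 5, 2 Hox genes passed. As deposited, 1783 genes passed (1400 higher and 383 lower). The ratio of Ezh2 to Ezh1 does not depend on the scaling, and adding 0.5 reads to each count left it at 0.472. Depth limits Pcgf1, Ring1, Auts2 and the Hox genes.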

Other observations

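Other histone methylation genes were listed after the Polycomb values had been seen. The HP1 genes, whose products read methylated lysine 9 of histone H3, were lower in all 3 cases, where 28.0% of all genes compared were lower beyond counting error. Cbx5, which encodes HP1α, had 4289 control and 3548 TSA reads and a fold change (with 95% interval) of 0.819 (0.783 to 0.857), and Cbx1, which encodes HP1β, had 774 and 592 reads and a fold change of 0.758 (0.679 to 0.844). Cbx3 (HP1γ) had a fold change of 0.927 (0.863 to 0.994), with an interval that included no change when scaled by total reads (0.906 to 1.04) or the upper quartile (0.889 to 1.02). They share the chromodomain with the CBX genes of PRC1, of which Cbx2, Cbx6 and Cbx7 were higher. Of 5 genes for methyltransferases of lysine 9, 3 were lower beyond counting error, where 28.0% of all genes compared were, with Suv39h1 at 784 and 549 reads and a fold change of 0.694 (0.621 to 0.774), Suv39h2 at 126 and 86 reads and a fold change of 0.678 (0.508 to 0.896), and Setdb1 at a fold change of 0.921 (0.858 to 0.989). The interval of Setdb1 included no change when scaled by total reads (0.901 to 1.04) or the upper quartile (0.884 to 1.02).

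Of 11 COMPASS and Trithorax-type genes, which act on lysine 4 and counter Polycomb silencing, 3 were higher and 3 lower beyond counting error, close to the 28.1% and 28.0% of all genes compared, none passed 2-fold (14.7% over all genes compared), and their median was 0.12 on the log2 scale. With total-read scaling Dpy30 (0.875 to 1.02) and Cxxc1 (0.827 to 1.0135) were no longer lower beyond counting error, and Kmt2d (1.003 to 1.30), Setd1b (1.03 to 1.26) and Men1 (1.03 to 1.33) were higher. By the upper quartile Dpy30 (0.858 to 1.003) was no longer lower, and Setd1b (1.011 to 1.24) and Men1 (1.006 to 1.30) were higher. The even split thus did not hold with either of these scalings. Setd1a differed most, with 498 and 392 reads and a fold change of 0.780 (0.681 to 0.892), and Kmt2c had 1127 and 1297 reads and a fold change of 1.14 (1.05 to 1.24). No replicate check exists for any of these values.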
